A study of Rattus norvegicus with 12 samples.

Results

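The genes described here are 10 transcripts listed as mast cell genes. Among them are the granule proteases Cpa3, Cma1, Mcpt1, Mcpt2, Tpsab1 and Tpsb2, though RefSeq now lists the array's Mcpt1 as Vch, vascular chymase. The others are the stem cell factor receptor Kit, the IgE receptor chains Fcer1a and Ms4a2, and the histamine-forming enzyme Hdc. Members were chosen by name: a probe counted when the gene name printed for it in the scanner files was that of a member. All 10 genes were found, on 11 probes, among 26583 gene names and 30367 probes of a rat whole-genome microarray. The question was whether the magnetic bead step that removed macrophages (Mφs) from dispersed cervix also went with a loss of mast cell transcripts, and whether these transcripts differed between late pregnant and nonpregnant rats.

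The 4 groups compared had 3 rats each, with the RNA of 1 adult female Sprague Dawley rat on each array. D21 rats were pregnant, on day 21 after breeding, the day before expected birth, and NP rats were nonpregnant and in proestrus. Every rat was perfused with saline and its cervix was minced and dispersed with collagenase. In the whole cervix groups (D21 rats 5, 6 and 7; NP rats 8, 9 and 10) the dispersed cells were frozen directly. In the Mφ-depleted groups (D21 rats 1, 2 and 4; NP rats 5, 6 and 7) the cells were first incubated with the ED1 antibody and Dynabeads and the bound cells were held back by a magnet. NP rats and D21 rats were thus different animals, and so were whole and Mφ-depleted rats. The extra handling and the removal of ED1-bearing cells cannot be told apart, because only the depleted cells went through antibody, beads and washes. In a bulk sample, fewer mast cells and less RNA per mast cell cannot be told apart either.

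Mast cells settle in connective tissue and mucosa as long-lived granulated cells. Their granules hold heparin-bound tryptases, chymases and carboxypeptidase A3 together with histamine, and are released when IgE bound to the high-affinity receptor is crosslinked. Kit, the receptor for stem cell factor, keeps them alive, although germ cells, melanocytes, interstitial cells of Cajal and some epithelia carry it as well. In rodents the chymase genes form a cluster that has expanded in the rat, and the tryptase genes form another. Mast cells have been described in the cervix and uterus of many species.

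Levels are given as log2 intensity relative to the 75th percentile of the same array, so that 0 is the brightness of that percentile. A probe was called well above background by the scanner software on each array, and a reading that was not has no order against other such readings. A gene was tested when its probe was well above background on all 3 arrays of a compared group. It was called when the unadjusted p-value of limma was below 0.01 and the change was at least 2-fold, the threshold of the study, and Benjamini-Hochberg adjusted p-values over all genes tested are printed beside. Levels of different genes were read by different probes and are not set against each other.

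The 12 arrays had between 44.9% and 61.7% of their probes well above background. The dimmest were NP Mφ-depleted rat 7 and NP whole rat 8, both on slide 3. Slides 1 and 2, scanned on earlier days, held 4 of the 6 Mφ-depleted arrays and no whole array. Only slide 3 held whole and Mφ-depleted cells together (NP whole rats 8 and 9, NP Mφ-depleted rat 7 and D21 Mφ-depleted rat 4), and slide 4 held the D21 whole rats with NP whole rat 10. Cd68, the transcript of the antigen that ED1 binds, did not pass the test after depletion (log2 difference of whole over depleted -0.15 ± 0.62, SE, in D21 and 0.54 ± 0.62 in NP, n = 3 rats a group). Other Mφ transcripts fell far: Csf1r, the receptor for macrophage colony stimulating factor, was higher in whole cervix by 6.74 ± 0.41 in D21 and 6.68 ± 0.41 in NP, and Adgre1 (F4/80, named Emr1 in the array files) by at least 36.6-fold and at least 39.6-fold. The sizes for Csf1r rest on 1 measured depleted array of 3 in each state. Cd163, a scavenger receptor, was higher by 5.28 ± 0.50 in D21.

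The probes whose readings carry the results are shown because several of these proteases are near copies of each other and because their names have moved. Each is a 60-base oligonucleotide on the strand of the transcript, with rn4 coordinates from the scanner files. Where a probe falls in its gene's exons was not looked up here.
Cpa3, chr2:105385518-105385577 on the minus strand: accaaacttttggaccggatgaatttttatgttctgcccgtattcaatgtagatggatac
Tpsb2, chr10:14614370-14614429 on the plus strand: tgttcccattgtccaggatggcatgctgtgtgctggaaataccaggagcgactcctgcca
Mcpt2, chr15:34557829-34557888 on the plus strand: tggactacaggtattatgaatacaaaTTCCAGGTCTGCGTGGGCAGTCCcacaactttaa
Mcpt1, chr15:34272209-34272268 on the plus strand: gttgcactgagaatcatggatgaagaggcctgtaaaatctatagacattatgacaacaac
Capitals in the Mcpt2 probe mark the longest run, 23 bases, that it shares with a probe listed for an unnamed Ensembl transcript, the closest other probe of the array (32 of 39 aligned bases the same). For the Cpa3 probe no alignment of 30 or more bases with a probe of another gene reached more than 63.3% identity, and for the Tpsb2 probe 67.7%. Current RefSeq tables call the transcript of the array's Mcpt2 probe Mcpt1, and that of the array's Mcpt1 probe Vch, vascular chymase. The array names are kept here, and each value printed for Mcpt2 is therefore of the transcript that RefSeq now lists as Mcpt1.

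The chymase probes lie together on chromosome 15 of rn4, where Cma1, Mcpt1, Mcpt2 and 9 further genes are spread over 475 kb. The tryptases Tpsab1 and Tpsb2 lie with Prss34 and Tpsg1 within 73.4 kb on chromosome 10. Cpa3, Kit, Hdc, Fcer1a and Ms4a2 are each on a chromosome apart from these, chromosomes 2, 14, 3, 13 and 1 in that order.

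Of the 10 members, 6 were well above background on every array of at least 1 group: Cpa3, Cma1, Mcpt2, Tpsab1, Tpsb2 and Kit. Fcer1a was at the edge of detection. Its brighter probe, spotted 10 times on each array, was well above background in D21 whole rat 6 and NP whole rat 10 only, and its second probe in 2 NP whole rats. Hdc was well above background on 2 of 12 arrays, both of depleted cells (NP rat 6 and D21 rat 2). Ms4a2, the β chain of the IgE receptor, and the array's Mcpt1 were well above background on no array. Whole cervix thus carried the granule protease transcripts other than the array's Mcpt1 plainly, though Tpsab1 was not well above background in NP whole rat 8. The transcripts for histamine synthesis and for the IgE receptor β chain stayed below what these probes could read there.

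**Figure D1:**
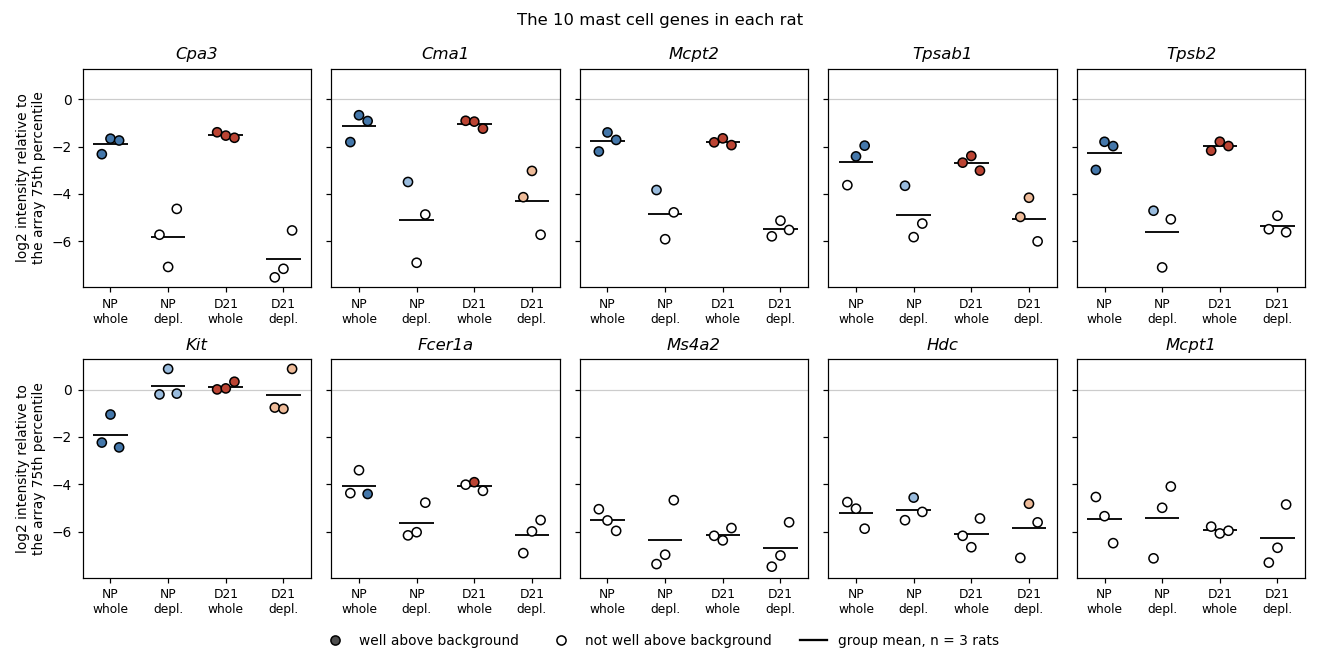
Log2 intensity of each mast cell gene over its array's 75th percentile (y axis) in each of the 12 rats, by group (x axis; depl., Mφ-depleted). Filled points were well above background and open points were not, and lines are group means. The 5 granule proteases of the upper row read lower in every depleted rat than in any whole rat of the same state, and Kit was lowest in NP whole cervix. For Tpsab1 in NP the nearest readings were -3.63 in whole rat 8 and -3.66 in depleted rat 5. The reading of whole rat 8 was not well above background, so this pair has no sure order.

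Depletion in D21 rats went with lower readings of every granule protease that could be tested. Of the 6 members tested, 5 were called higher in whole cervix than in Mφ-depleted cells (Cpa3, Cma1, Mcpt2, Tpsb2 and Tpsab1) and none lower. Each of these 5 passed the filter through the whole group alone, which favours this direction. The shares over all genes include genes read in both groups. With the filter on every array only 1 member, Kit, was tested, and it was not called. Over all 14239 genes tested, 10% were called higher and 17.8% in either direction. The median log2 difference was 3.32 over the 6 members tested, or 2.78 with 3 of them (Cpa3, Mcpt2 and Tpsb2) at their lower bound, and -0.06 over all genes tested. The 5 calls also passed a limma adjusted p of 0.05, as did 11.9% of all genes in that direction.

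Cpa3, the carboxypeptidase of the mast cell granule, read -1.39, -1.54 and -1.63 in D21 whole rats 5, 6 and 7. In D21 Mφ-depleted rats 1, 2 and 4 it read -7.53, -7.17 and -5.55, in no case well above background. All whole rats were above all depleted rats, and depletion went with a level at least 8.96-fold lower (limma adjusted p = 0.000345).

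Mcpt2, a chymase-like granule protease, was also lower after depletion, with -1.82, -1.65 and -1.94 in whole rats against -5.80, -5.13 and -5.53 in depleted rats. None of the depleted readings was well above background, and the bound was at least 7.36-fold (limma adjusted p = 0.00045). Tpsb2, the β tryptase, read -2.17, -1.79 and -1.98 in whole rats and -5.50, -4.93 and -5.62 in depleted rats. The groups did not overlap, and Tpsb2 in whole cells exceeded depleted cells at least 6.42-fold (limma adjusted p = 0.00256).

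Cma1, mast cell chymase, was still readable in depleted cells of 2 D21 rats. It read -0.91, -0.94 and -1.24 in whole rats 5, 6 and 7. Depleted rats 1 and 2 read -4.14 and -3.03, well above background, and rat 4 read -5.73, which was not. The fitted difference was 3.27 ± 0.80 on the log2 scale (SE, n = 3 rats a group, limma adjusted p = 0.0181).

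Tpsab1, the α/β tryptase, had the smallest difference of the 5. Whole rats read -2.68, -2.40 and -3.02. Depleted rats 1 and 2, at -4.98 and -4.16, were well above background and rat 4, at -6.01, was not. The log2 difference was 2.35 ± 0.62 (limma adjusted p = 0.0231). The array of D21 Mφ-depleted rat 4 was the only one of its group scanned on the same day as the whole arrays. Without it 3 members were called, beside 14.1% of all genes higher, since Cma1 (2.55) and Tpsab1 (1.87) no longer passed. Tpsab1 also lost its call without D21 whole rat 6.

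Background correction by normexp, in place of the scanner's own, left the direction of all 5 proteases but ended every call, with log2 differences of 0.33 for Tpsab1 to 1.01 for Cpa3. That setting called 3.88% of all genes higher. Scan day as a block kept the 5 calls (5.69% of all genes higher), and the slide as a block kept those of Cpa3 and Mcpt2 (2.22%). No slide held D21 whole and D21 depleted arrays together, so the slide setting compares them only by way of NP arrays. D21 depleted rat 4, of the same scan day as the 3 whole rats, was not well above background for any of these 5, so that array gives bounds alone. Against it the whole rats were at least 6.45-fold higher for Cma1, at least 4.60-fold for Cpa3, at least 3.77-fold for Mcpt2, at least 3.34-fold for Tpsb2 and at least 2.03-fold for Tpsab1.

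In NP rats 4 proteases were also lower after depletion, and Kit was higher. Of 5 members tested, 4 were called higher in whole cervix (Cpa3, Cma1, Mcpt2 and Tpsb2) and 1, Kit, was called lower. The 4 proteases passed the filter through the whole group alone, which favours this direction, while Kit was read in every rat of both groups. The background over 13391 genes was 13.6% higher, 10.8% lower and 24.4% in either direction. The median log2 difference was 3.38 over the 5 members, or 3.07 with Cpa3 at its lower bound, and -0.04 over all genes tested, and all 5 calls passed a limma adjusted p of 0.05, as did 32.8% of all genes in either direction.

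Cpa3 read -2.32, -1.67 and -1.74 in NP whole rats 8, 9 and 10 and -5.73, -7.09 and -4.64 in NP Mφ-depleted rats 5, 6 and 7, where no array was well above background. Its level in depleted cells was at least 5.69-fold lower (limma adjusted p = 0.000531). Cma1 read -1.81, -0.67 and -0.92 in whole rats. In depleted rat 5 it read -3.50, well above background, and in rats 6 and 7 it read -6.91 and -4.87, which were not. The log2 difference was 3.96 ± 0.80 (limma adjusted p = 0.0032).

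NP depleted rat 5 kept a measurable level of the other proteases too. Mcpt2 read -2.21, -1.40 and -1.72 in whole rats and -3.84, -5.92 and -4.78 in depleted rats, of which only rat 5 was well above background. Tpsb2 read -2.99, -1.80 and -1.98 in whole rats and -4.71, -7.11 and -5.08 in depleted rats, again with rat 5 alone above background. The fitted differences were 3.07 ± 0.44 for Mcpt2 (limma adjusted p = 0.000338) and 3.38 ± 0.54 for Tpsb2 (limma adjusted p = 0.000751). Their sizes rest on 1 measured depleted array of 3, as does that of Cma1.

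Tpsab1 was not tested in NP rats because whole rat 8, at -3.63, was not well above background. Rats 9 and 10 read -2.41 and -1.96, and depleted rats 5, 6 and 7 read -3.66, -5.83 and -5.26. The groups did not overlap, but the gap between whole rat 8 and depleted rat 5 was narrow. Of this pair, only depleted rat 5 was well above background. When NP whole rat 8 was left out, Tpsab1 entered the test and 5 members were called higher of 6 tested, beside 12.1% of all genes.

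With normexp, only Cma1 (1.77) among the proteases kept its call in NP rats, and Kit kept its own (-1.44). That setting called 9.04% of all genes higher and 6.48% lower. Within slide 3, NP Mφ-depleted rat 7 was not well above background for the proteases. NP whole rats 8 and 9 were at least 3.23-fold above it for Cma1, at least 2.18-fold for Mcpt2, at least 1.92-fold for Cpa3 and at least 1.45-fold for Tpsb2. Kit, measured on all 3 of these arrays, was lower in the whole rats, with a log2 difference of -1.48.

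**Figure D2:**
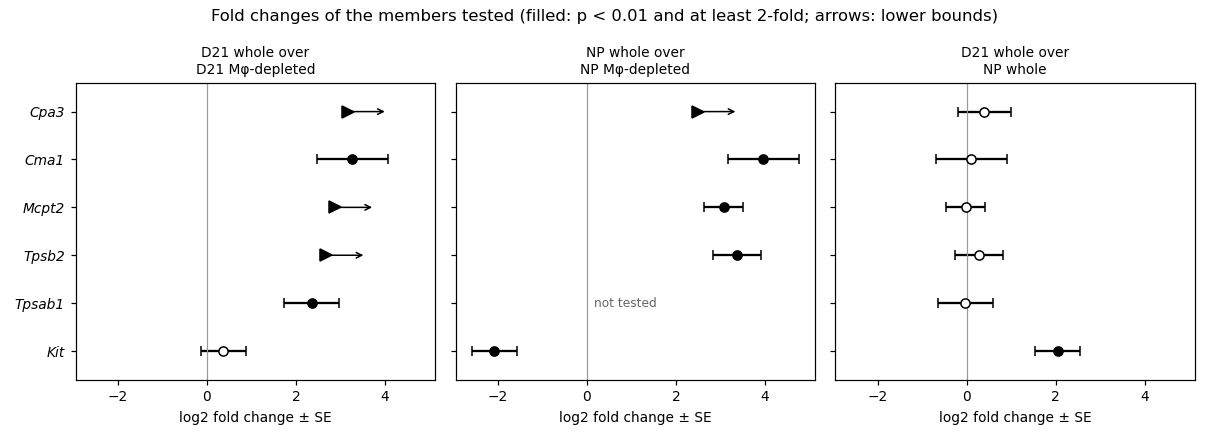
Log2 fold change with its standard error (x axis) of each member that was tested (y axis), for whole over Mφ-depleted cells in D21 and NP rats and for D21 over NP whole cervix. Filled points passed an unadjusted p of 0.01 and 2-fold, and triangles with arrows mark lower bounds where no depleted array was well above background. Every granule protease tested lay above 2 in both depletion contrasts and between -0.03 and 0.39 for D21 over NP, while Kit lay at -2.08 in NP depletion and 2.04 between D21 and NP.

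Fcer1a, the IgE-binding chain, could not be tested in either state. Its brighter probe read -4.02, -3.91 and -4.28 in D21 whole rats against -6.91, -5.99 and -5.52 in D21 depleted rats. In NP rats it read -4.38, -3.41 and -4.41 against -6.16, -6.03 and -4.78. The readings did not overlap in either state, but only 1 whole array of each was well above background and no depleted array was. No fold bound is given, and the separation rests mostly on readings without order. Among the members tested, Cpa3, Cma1, Mcpt2, Tpsb2 and, in D21, Tpsab1 had whole rats all above depleted rats. Counting the untested Fcer1a and, in NP, the untested Tpsab1, this was 6 of the 10 members in each state. Such separation was found for 21.3% of all genes tested in D21 and 22.9% in NP. Those shares cover tested genes only, so the counts of 6 are not like them. Kit was the 1 member separated the other way in NP, beside 24% of genes.

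Kit did not follow the proteases. Its probe was read above background in all 12 rats. D21 whole rats read 0.01, 0.06 and 0.34 and D21 depleted rats 1, 2 and 4 read -0.75, -0.81 and 0.88, groups that overlapped (0.36 ± 0.50, limma adjusted p = 0.621). In NP rats the whole readings were -2.24, -1.05 and -2.44 and the depleted readings -0.20, 0.88 and -0.16. All NP depleted rats were thus above all NP whole rats, and the log2 difference of whole over depleted was -2.08 ± 0.50 (limma adjusted p = 0.00863). The slide as a block ended this call (-2.10, unadjusted p = 0.0133).

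Between the pregnancy states, Kit was the only member called. It was higher in D21 than in NP whole cervix by 2.04 ± 0.50 on the log2 scale (limma adjusted p = 0.0391), with every D21 rat above every NP rat. This was 1 of 6 members tested, beside 5.39% of 14038 genes called higher and 8.48% called in either direction, and 3.95% of genes were higher by adjusted p. Within slide 4 the D21 whole rats were above NP whole rat 10 by 2.58. In Mφ-depleted cells Kit was the only member that could be tested, and it was not called (-0.40 ± 0.50, 95% interval -1.50 to 0.70, limma adjusted p = 0.675). There the background was 7.49% of 13391 genes.

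Epithelial transcripts are given beside Kit for each comparison, from 9 genes tested (keratins, claudins, Epcam and Cdh1). For D21 over NP whole cervix, where Kit was called higher, 7 of the 9 were higher and none lower (5.39% of all genes higher). For NP whole over depleted cells, where Kit was called lower, 5 were lower and none higher (10.8% of all genes lower). Kit was not called in the other pair. For D21 whole over depleted cells 1 epithelial gene was higher and 3 were lower, with a median log2 difference of -0.37 against 0.36 for Kit (7.73% of all genes lower). For D21 over NP depleted cells 3 were higher and none lower, with a median of 0.67 against -0.40 for Kit (5.43% of all genes higher). The summed epithelial level, in multiples of the 75th percentile, ranged from 122 to 395 in NP whole, 431 to 917 in NP depleted, 241 to 389 in D21 whole and 491 to 664 in D21 depleted rats. In the list of melanocyte genes 1 of 2 tested, Pmel (Silv in the array files), was lower in D21 whole than NP whole cervix, beside 3.09% of all genes. Of its 6 genes, 3 were well above background on no array. Of interstitial cell of Cajal genes, 1 of 4 tested (Gpr20) was higher in D21 whole than depleted cells, beside 10% of all genes. In NP, 1 of 3 tested was higher in whole than depleted cells, beside 13.6% of all genes. The part of these cells in the Kit readings was not tested.

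The granule proteases did not pass the test between D21 and NP whole cervix. Log2 differences of D21 over NP were 0.39 for Cpa3 (95% interval -0.92 to 1.70), 0.27 for Tpsb2 (-0.92 to 1.47) and 0.10 for Cma1 (-1.66 to 1.86). They were -0.03 for both Mcpt2 (-0.99 to 0.94) and Tpsab1 (-1.38 to 1.33). A 2-fold higher level in D21 (a log2 difference of 1) lies inside the intervals of Cpa3, Tpsb2, Cma1 and Tpsab1, a 2-fold lower level inside those of Cma1 and Tpsab1, and the interval of Mcpt2 just stops short of both. Cpa3 was the 1 protease whose D21 whole rats all lay above the NP whole rats, the nearest readings being -1.63 and -1.67. With Kit, 2 of 10 members, both among the 6 tested, were separated in this direction, beside 20% of all genes tested. D21 whole rats also lay closer together: the SD of Cpa3 was 0.12 in D21 and 0.36 in NP, and that of Tpsb2 was 0.19 and 0.64. This was not particular to the members. The SD of the mean log2 level was 0.05 and 0.22 for housekeeping genes and 0.05 and 0.35 for Mφ genes. Some lists went the other way, such as epithelial genes (0.22 and 0.16). All D21 whole rats were on slide 4, while NP whole rats were on slides 3 and 4.

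The difference between D21 and NP in the effect of depletion was tested as an interaction. Of 6 members tested, Kit was called (2.44 ± 0.72, unadjusted p = 0.00567, limma adjusted p = 0.105), beside 7.44% of 14548 genes, and by adjusted p no member passed, beside 2.39%. No protease was called at either threshold. Most of their depleted readings, and all of those of Cpa3, were not well above background, so no size or direction is read from them. The call of Kit was lost when any of 8 of the 12 arrays was left out, and its value then lay between 2.09 and 2.50.

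Further proteases of the mast cell gene clusters were read from a list of 14 genes, of which 12 were on the array. In D21 rats 3 of 4 tested were higher in whole than in depleted cells, and in NP rats 4 of 4, with none lower in either. Of all genes tested, 10% were called higher in D21 and 13.6% in NP. Those tested here passed the filter through the whole group alone, which favours this direction. Mcpt1l4, a chymase-like gene, had the largest difference of this list's tested genes in D21 rats (whole over depleted 4.12 ± 0.73, limma adjusted p = 0.00413) and one of 3.92 ± 0.73 in NP rats. Its NP size rests on 1 measured depleted array of 3. The Mcpt1l4 probe shares 55 of 60 bases with that of another gene, so its reading may include that gene. Mcpt8, Mcpt9 and Mcpt10 are granzyme-like proteases of the same chromosome 15 cluster. Whole over depleted differences were 2.59 ± 0.47 in D21 and 3.92 ± 0.46 in NP for Mcpt8, and for Mcpt9 at least 4.32-fold in D21 and 3.60 ± 0.42 in NP, with 1 measured depleted array of 3. In NP rats Mcpt10 exceeded its depleted level at least 3.61-fold.

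These granzyme-like genes were also where D21 and NP whole cervix parted. Mcpt8 read -1.26, -2.07 and -2.01 in D21 whole rats 5, 6 and 7 and -0.47, 0.28 and -0.32 in NP whole rats 8, 9 and 10. Mcpt9 read -2.35, -2.64 and -2.73 in D21 and -1.35, -0.91 and -1.23 in NP whole rats. Both were called lower in D21, with log2 differences of -1.61 ± 0.46 and -1.41 ± 0.42 and limma adjusted p of 0.0666 and 0.0733 that miss 0.05. Mcpt10 (-1.44) lay the same way, with no overlap between groups, and missed the call. Within slide 4, D21 whole rats were below NP whole rat 10 with log2 differences of -1.46 for Mcpt8 and -1.34 for Mcpt9. Mcpt8 is also used as a basophil marker, and its probe shares 55 of 58 aligned bases with the probe of another gene. In the T and NK cell list, 3 of 6 genes tested were lower in D21 than NP whole cervix (Nkg7, Gzmm and Prf1) and 1, Cd3g, was higher (1.88, limma adjusted p = 0.0396). Of all genes tested, 3.09% were called lower. Whether granule genes of lymphocytes contribute to these readings was not tested.

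Tpsg1, a membrane-anchored tryptase beside Tpsb2, ran the other way. It read -1.36, -0.19 and -0.27 in D21 whole rats and was well above background in no NP rat. D21 whole cervix was at least 10.1-fold higher than NP whole cervix (limma adjusted p = 0.0312). Depleted D21 rats 1 and 2 still read -0.13 and -2.02, and the whole and depleted groups overlapped. Prss34, another tryptase of the cluster, was well above background only in depleted cells, on 3 of 6 arrays. Mcpt3, Mcpt4, Mcpt8l3 and Ctsg were well above background on no array.

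**Figure D3:**
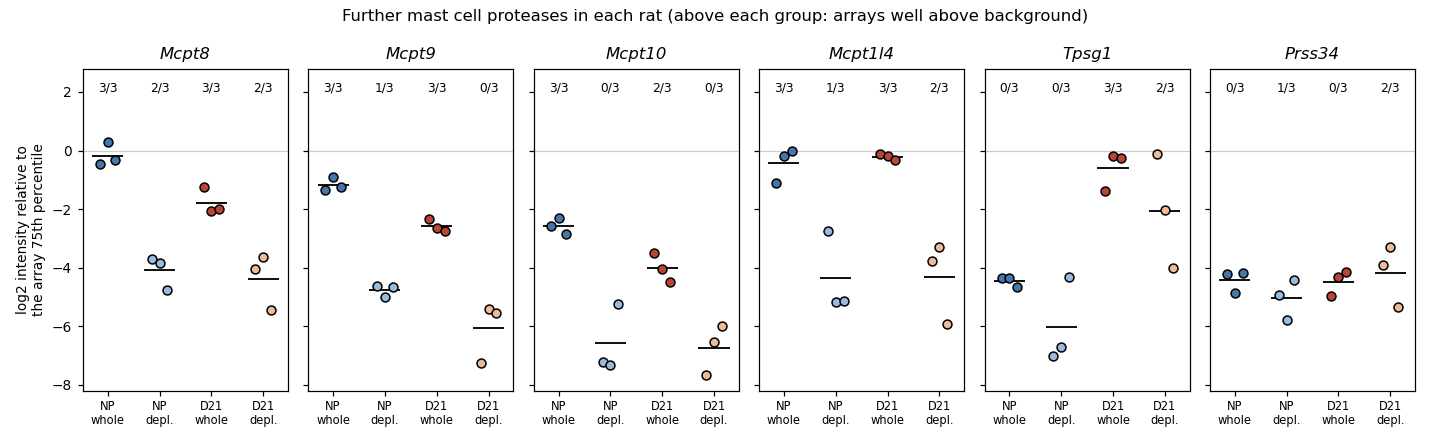
Log2 intensity over the array's 75th percentile (y axis) of 6 further proteases in each rat by group (x axis; lines are group means), with the number of arrays of 3 well above background over each group. Mcpt8, Mcpt9 and Mcpt10 were higher in NP than in D21 whole cervix, Mcpt1l4 was level between them, and Tpsg1 was high in D21 rats only.

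Genes acting downstream of the IgE receptor are for the most part used by other leukocytes as well. Of 9 tested, 3 were higher in D21 whole than depleted cells and 4 in NP, and Syk was lower in NP (-1.16 ± 0.34). The shares of all genes were 10% higher in D21, and 13.6% higher and 10.8% lower in NP. Fcer1g, the signalling chain that the IgE receptor shares with the IgG receptors of Mφs, was higher in whole cervix by 4.39 ± 0.40 in D21 and 5.13 ± 0.39 in NP. The adaptor Lat2 was higher in whole cervix by 2.79 and 3.53, and the kinase Btk by at least 3.73-fold and at least 6.88-fold. The D21 size for Lat2 rests on 1 measured depleted array of 3. The partner chains of the same receptor, Fcer1a and Ms4a2, were faint or unread, as described above.

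Growth factors and surface receptors of mast cells gave no member higher in whole cervix of D21 rats and 1 of 6 (Ngfr, 2.28 ± 0.63) in NP rats. Over all genes 10% were higher in D21 and 13.6% in NP, so the NP count is near the share of all genes. Kitlg, the ligand of Kit, singled out after its values were seen, was read above background in every rat and was called in no comparison, with a D21 over NP difference of 0.05 in whole cervix. Il1rl1, the receptor for IL-33, was higher in D21 than NP whole cervix by 2.29 ± 0.62 (limma adjusted p = 0.0557). In Mφ-depleted cells it was at least 2.16-fold higher in D21 (limma adjusted p = 0.0269), and it was not called with depletion in D21 rats. Mrgprb2, a receptor of connective tissue mast cells, was well above background on no array.

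Among 10 transcription factors of mast cells, 7 were tested. Meis1 was lower in whole than depleted cells in both states (-1.06 in D21 and -1.21 in NP). Mitf was higher in NP whole than NP depleted cells by 2.36 ± 0.64 and was not called in D21, where the difference was -1.16. Bhlhe40 was lower in NP whole than NP depleted cells (-1.64 ± 0.31) and higher in D21 than NP whole cervix by 2.27 ± 0.32 (limma adjusted p = 0.00437). None of the 7 was called higher in whole than depleted cells in both states. In D21, 0 were called higher and 1 lower, beside 10% and 7.73% of all genes. In NP, 1 was called higher and 2 lower, beside 13.6% and 10.8%. For D21 over NP, 1 was called higher in whole cervix (5.39% of all genes) and 1 in depleted cells (5.43%), with 0 lower in either.

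Granule matrix and lipid mediator genes were tested at 15 genes in D21 and 13 in NP, with 4 higher in whole cervix in each and 1 lower in NP (Ptgs1). The background was 10% of all genes higher in D21, and 13.6% higher and 10.8% lower in NP. Srgn, the proteoglycan core that packs granules of mast cells and other leukocytes, was higher by 1.63 ± 0.26 in D21 and 2.95 ± 0.26 in NP. Alox5ap, needed for leukotriene synthesis in myeloid cells, was higher by 4.47 ± 0.41 and 5.55 ± 0.41. Both sizes rest on 1 measured depleted array of 3. Ltc4s, the leukotriene synthase, exceeded its depleted level at least 1.93-fold in D21. Among histamine receptors, transport and breakdown, Slc22a3, an organic cation transporter that carries histamine, was at least 5.01-fold higher in D21 whole than depleted cells. F2rl1, the protease-activated receptor that tryptase cleaves, was lower in whole than depleted cells in D21 (-1.76 ± 0.34) and in NP (-1.06 ± 0.34).

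Transcripts of several other cell types fell with depletion too. Over all genes tested, 10% were called higher and 7.73% lower in whole D21 cervix, and 13.6% and 10.8% in NP. Of the Mφ list 12 of 15 genes were higher in whole D21 cervix and 11 of 13 in NP. Of the smooth muscle list 7 of 10 were higher in D21 and 10 of 10 in NP, and of the fibroblast list 4 of 10 and 9 of 9. Epithelial genes went the other way, with 3 of 9 lower in D21 whole cervix, 1 higher, and 5 lower in NP. Immediate-early genes, which many stimuli induce within minutes, were lower in whole cervix for 9 of 10 genes in D21 and 7 of 8 in NP. Among basophil genes other than Mcpt8, Il3ra was the 1 tested and was not called, and the single eosinophil gene tested in D21 (Siglec5) was higher. The part of these shifts in the loss of mast cell transcripts was not tested.

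The summed level of the 6 mast cell genes used was 2.58 to 2.70 multiples of the 75th percentile in D21 whole, 0.73 to 1.94 in D21 depleted, 1.12 to 2.28 in NP whole and 1.06 to 1.90 in NP depleted rats, Kit included. The mean log2 level, in which Kit weighs as 1 of 6, was -1.48 ± 0.10 (SD, n = 3) in D21 whole and -4.53 ± 0.29 in D21 depleted rats. In NP rats it was -1.94 ± 0.53 and -4.36 ± 0.88. The plain sums of the NP groups overlap, and Kit, the member that rose there with depletion, is part of them.

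**Figure D4:**
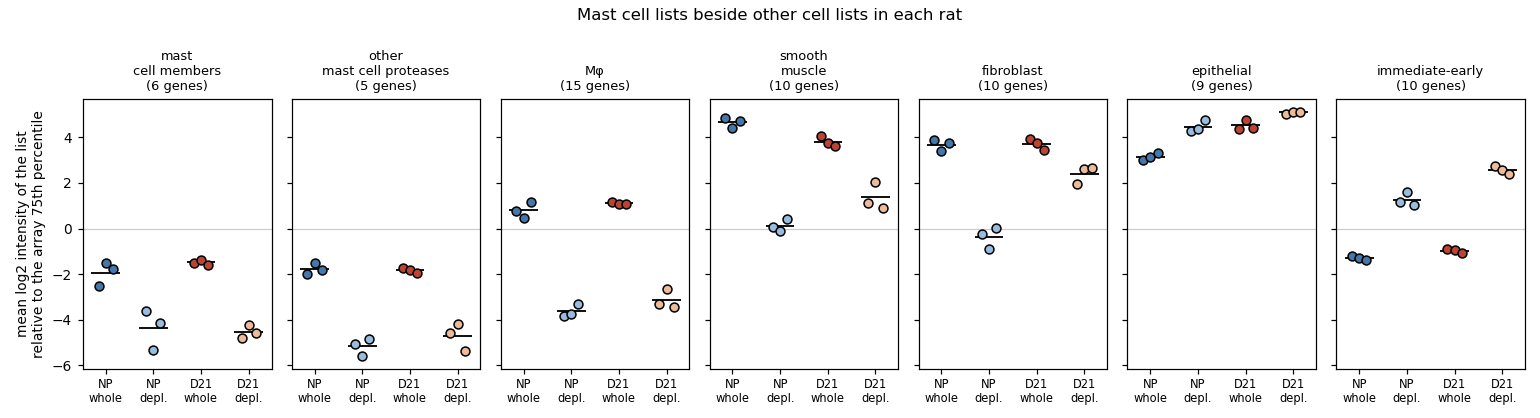
Mean log2 intensity over the array's 75th percentile (y axis) over the genes of 7 lists that were well above background in a group, in each rat by group (x axis; lines are group means). Mast cell, Mφ, smooth muscle and fibroblast genes were lower in depleted cells, and epithelial and immediate-early genes were higher.

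The genes most like Cpa3 over the 12 arrays were sought among 12230 genes well above background in all whole rats, by the root mean square difference between values centred on each gene's own mean. The 10 nearest were Lmod1, Rgs18, RGD1559588, Smoc1, Vav1, Fcgr3a, Nmur2, P2ry14, Clecsf6 (now Clec4a) and Npl, at 0.49 to 0.70 on the log2 scale. Lmod1 is a smooth muscle gene and Fcgr3a, Vav1 and Clec4a are leukocyte genes. Other members ranked lower, with Mcpt2 at place 35 (0.88), Tpsb2 at 48 (0.97), Cma1 at 248 (1.34) and Kit at 10685 (2.89). Since Cpa3 was below background in all depleted rats, this likeness rests in part on readings without order.

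Promoters are shown for the 5 members that fell together, with and without the motif, and for Kit, which did not fall. They are the 250 bases before the start of the RefSeq transcript, assembly GRCr8, on the strand of the gene, with capitals at each GATAA or its reverse complement TTATC, the core of the sites that GATA factors bind.
Cpa3, chr2:104673238-104673487 on the minus strand: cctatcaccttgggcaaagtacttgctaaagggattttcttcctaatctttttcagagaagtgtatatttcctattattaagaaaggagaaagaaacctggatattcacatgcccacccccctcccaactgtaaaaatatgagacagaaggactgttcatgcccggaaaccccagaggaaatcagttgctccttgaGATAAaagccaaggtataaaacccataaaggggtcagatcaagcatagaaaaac
Cma1, chr15:33390134-33390383 on the minus strand: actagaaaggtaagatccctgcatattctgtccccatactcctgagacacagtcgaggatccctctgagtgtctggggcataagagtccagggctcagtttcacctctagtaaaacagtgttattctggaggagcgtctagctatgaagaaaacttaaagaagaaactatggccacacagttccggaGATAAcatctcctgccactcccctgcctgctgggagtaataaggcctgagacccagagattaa
Mcpt2 of the array, RefSeq Mcpt1, chr15:33841356-33841605 on the plus strand: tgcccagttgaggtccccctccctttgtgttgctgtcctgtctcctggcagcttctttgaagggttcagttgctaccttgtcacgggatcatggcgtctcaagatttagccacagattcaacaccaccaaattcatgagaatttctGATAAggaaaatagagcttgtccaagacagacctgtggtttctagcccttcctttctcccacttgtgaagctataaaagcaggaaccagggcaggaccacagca
Tpsb2, chr10:14886060-14886309 on the plus strand: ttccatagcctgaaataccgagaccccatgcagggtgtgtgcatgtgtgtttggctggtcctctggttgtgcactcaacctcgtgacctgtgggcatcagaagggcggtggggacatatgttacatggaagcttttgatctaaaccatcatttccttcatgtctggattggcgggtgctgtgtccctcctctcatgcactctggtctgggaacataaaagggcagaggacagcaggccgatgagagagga
Tpsab1, chr10:14867303-14867552 on the minus strand: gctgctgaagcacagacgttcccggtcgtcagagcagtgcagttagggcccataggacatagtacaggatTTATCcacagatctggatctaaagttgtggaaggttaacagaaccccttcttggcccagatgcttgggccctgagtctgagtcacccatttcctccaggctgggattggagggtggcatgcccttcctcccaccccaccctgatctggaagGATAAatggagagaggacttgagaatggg
Kit, chr14:32978813-32979062 on the minus strand: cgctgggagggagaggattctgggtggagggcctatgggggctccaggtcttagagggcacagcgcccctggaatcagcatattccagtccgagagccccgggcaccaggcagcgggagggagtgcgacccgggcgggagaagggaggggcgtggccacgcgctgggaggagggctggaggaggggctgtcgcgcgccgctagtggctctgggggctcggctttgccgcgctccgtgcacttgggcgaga
GATAA was present on either strand in 6 of 9 members with a promoter in the table (Cpa3, Cma1, Tpsab1, Fcer1a and both array names Mcpt1 and Mcpt2), and in 23.5% of 33469 rat promoters of the same length. It was not in the windows of Tpsb2, Hdc and Kit. Array Mcpt1, whose window holds 3 copies, was below background on every array, and Tpsb2, with none, fell with depletion. The E-box form CATGTG, searched on both strands, was in 3 of 9 members and 12.1% of all promoters, and TATAAA in 4 of 9 and 12.9%. Ms4a2 had no entry. A match of letters is a description of the sequence and was not tied to binding by these data.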

How the data were processed

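Total RNA of dispersed cervical cells from 12 rats was labelled and hybridised to 1-colour Agilent rat arrays. The deposited scanner files hold the intensity of each spot, background-subtracted and detrended by Agilent Feature Extraction, with no scaling between arrays. The authors' value table is the ratio of each probe to the 75th percentile of its array. It served as an alternative.

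Here, control and outlier spots were left out, spots of a probe were averaged, and log2 of the intensity minus that of the array's 75th percentile was fitted with limma 3.58.1 in R 4.3.3, with a mean for each of the 4 groups. A gene was read by its brightest probe. The number of arrays limits the precision. Scripts ran in Python 3.11.15 with pandas 2.3.3 and scipy 1.17.1, and the fit was tested on simulated data.

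The members and lists were chosen with earlier results of these data known. Named besides the members are, per list, up to 5 called genes with the largest change, Cd68, Csf1r, Adgre1, Cd163 and the 10 genes nearest to Cpa3. Any others were named after their values were seen. Whether each rat is a separate litter is not given in the sources used here.

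For "at least N-fold", the bright group's mean was set against a ceiling for the dim group, averaged over its arrays: the lowest reading well above background, or the probe's reading where that was higher. Alternatives covered the test and its threshold, background correction, normalization, the filter, probes and names of a gene, array weights, slide, scan day and each rat left out. Promoters came from RefSeq (GRCr8).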

Additional observations from a re-analysis of the deposited data

Results flagged for a closer look

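Genes are given here because the effect of depletion differed between D21 and NP rats in the limma interaction test (log2 difference with depletion in D21 minus that in NP, unadjusted p below 0.01). Kit differed by 2.44 ± 0.72 (SE, adjusted p = 0.105). Mitf, a transcription factor of mast cells and melanocytes, differed by -3.52 ± 0.91 (adjusted p = 0.0715), and Bhlhe40 by 2.17 ± 0.45 (adjusted p = 0.0324). Srgn, the granule proteoglycan core, differed by -1.32 ± 0.37 (adjusted p = 0.0923). Cd63, a granule membrane tetraspanin, differed by -1.18 ± 0.36 (adjusted p = 0.115). Of these 5, Bhlhe40 passed an adjusted p of 0.05, as did 2.39% of all genes. At unadjusted p below 0.01 and at least 2-fold, 7.44% of 14548 genes were called. Kit was 1 of 6 members tested. Bhlhe40 (higher) and Mitf (lower) were among 7 transcription factors tested, and Srgn and Cd63 among 15 granule and lipid genes. The further lists of mast cell genes gave no call, so these genes were not set apart from the share over all genes.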

How the results depend on the processing

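No paired analysis was possible because the groups compared share fewer than 2 replicate numbers. Of the 515 values of single members under the alternatives, 431 kept their direction and side of the threshold, 49 lost a call, 1 gained one and 34 changed sign. The loss of proteases with depletion kept its direction under every alternative that tested them, in both states. In the report these proteases passed the filter through the whole group alone, which favours this direction, and the filter on every array tested none of them. Cpa3, where tested, kept its call except with the methods' t-test and normexp.

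Members called in the D21 depletion comparison, 5 in the report, numbered 2 by the methods' t-test and 0 after its Benjamini-Hochberg adjustment, 0 with normexp, 0 with a filter on every array (1 member tested), and 2 with the slide as a block. Of all genes, these settings called 2.77%, 0.0562%, 3.88%, 7.83% and 2.22% higher, in that order. The members called numbered 3 without the 2 Mφ-depleted arrays scanned with the whole arrays, an alternative chosen after seeing the data (15% of all genes higher). They numbered 3 to 5 with a rat left out (6.33% to 14.1% of all genes higher). In NP the 5 became 0 by the methods' t-test, adjusted or not, 2 with normexp, 1 with a filter on every array (1 tested), and 5 to 6 with a rat left out. Of all genes, the t-test called 6.36% higher and 4.27% lower, and 3.47% and 1.82% after adjustment. Normexp called 9.04% and 6.48%, and the filter on every array 8.52% and 10.5%. With a rat left out 12.1% to 13.5% were higher. Between D21 and NP whole cervix, 1 became 0 by the methods' t-test, adjusted or not, and stayed at 1 with each rat left out. There the t-test called 2.05% of all genes higher and 1.45% lower. After adjustment it called none of 14038 genes, so that count is not particular to the members. With a rat left out 3.31% to 5.84% of all genes were higher. The interaction, 1 member, gave 0 by limma's adjusted p, 0 with slide or scan day as a block, 2 with array weights (Kit, and Cpa3 from depleted readings at background), and 0 to 1 with a rat left out. Of all genes, 0.44%, 0.983%, 2.2% and 11.6% were called higher in these settings, in that order, and 1.24% to 7.96% with a rat left out.

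Sign changes fell on differences that were not called. With depletion in D21, Kit was -0.12 with scan day as a block. For D21 over NP whole cervix, Tpsab1 was 0.072 with normexp and 0.11 with quantile normalization, Mcpt2 was 0.083 with normexp and 0.036 with array weights, and with the slide as a block Tpsb2 was -0.0019 and Cma1 -0.11. With a rat left out, Tpsab1 ranged from -0.51 to 0.33, Tpsb2 from -0.093 to 0.50, Cma1 from -0.23 to 0.33 and Mcpt2 from -0.24 to 0.16. In the interaction, protease values rest mostly on depleted readings that were not well above background, so neither their sizes nor their signs are interpreted. They are listed only to show the spread between alternatives. Normexp gave -0.83 for Tpsab1, -0.59 for Cpa3 and -0.65 for Mcpt2. Tpsab1 was -0.12 with quantile normalization, -0.75 with the slide and -0.037 with scan day as a block. Tpsb2 was 0.13 with the percentile over detected probes, 0.45 with array weights and 0.25 with the authors' values. With a rat left out, the interaction ranged from -0.52 to 0.56 for Tpsab1, -0.47 to 0.73 for Tpsb2 and -1.49 to 0.22 for Cma1. The cause of these changes was not tested.

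Signal over background limits the depleted groups, where most protease readings were at background and only bounds can be given. The 75th percentile over detected probes moved the median of all genes in the D21 depletion comparison from -0.06 to 0.13.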
